A study of Mus musculus with 6 samples.

Results

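The 10 genes described here were grouped for their work in the intercalated cells of the kidney collecting duct, which move acid and ammonia into the urine. The grouping does not mean that only these cells make them. The genes are 5 subunits of the proton pump (Atp6v1b1, Atp6v1c2, Atp6v1g3, Atp6v0a4 and Atp6v0d2), the transcription factor gene Foxi1, the ammonia channel genes Rhbg and Rhcg, the aquaporin gene Aqp6 and the receptor kinase gene Insrr. Members were picked by gene symbol, and all 10 were found among the 20138 genes of the authors' deposited table, which was the only file used. Whole kidneys of 6 mice at postnatal day 35 were compared by RNA sequencing. The 3 Pkd2-miR-214-KO mice had the genotype Pkhd1Cre; Pkd2 F/F; miR-214null, and the 3 Pkd2-KO mice the genotype Pkhd1Cre; Pkd2 F/F. Both groups therefore carried floxed Pkd2, the gene for polycystin-2, with Cre driven by the Pkhd1 promoter, so that Pkd2 was deleted only in cells where that promoter had been active, chiefly tubule cells. No kidney with intact Pkd2 was among the samples. The comparison addresses what loss of the microRNA miR-214 changes in kidneys with this deletion of Pkd2.

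The vacuolar proton pump has a cytosolic V1 sector, which splits ATP, and a membrane V0 sector, through which protons pass. Most cells use it to acidify lysosomes. Intercalated cells also place it in the plasma membrane, with subunit isoforms that few other cells make, and mutations of the human B1 and a4 genes cause distal renal tubular acidosis. Type A cells secrete acid through the pump on their luminal side, type B cells secrete bicarbonate through the exchanger pendrin, and Foxi1 is needed in mice for intercalated cells to form. Ammonia crosses the duct cells through the Rh proteins Rhbg, on the basolateral side, and Rhcg, mainly on the luminal side.

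miR-214 is processed from a hairpin into a pair of arms, and the seed of each arm, bases 2 to 8, is the part that pairs with target messages. The mature sequences are shown because their seeds define the matches searched in the members. They were taken from RefSeq on GRCm38.p6, with the seed in capitals, and lie on the plus strand of chromosome 1, the 5p arm from 162223397 to 162223418 and the 3p arm from 162223438 to 162223459.
mmu-miR-214-5p: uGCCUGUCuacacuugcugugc
mmu-miR-214-3p: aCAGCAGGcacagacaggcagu

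The 7 bases that pair with the 3p seed, CCTGCTG, were found in the longest annotated 3′ UTR of 1 of the 10 members, Aqp6, and in 21.3% of the 16900 genes of the table that had an annotated 3′ UTR. The 7 bases for the 5p seed, GACAGGC, were found in 2 of the 10 members, Atp6v0a4 and Insrr, and in 9.4% of those genes. Each match is printed with the bases around it, in the sense of the message, with the match in capitals.
Aqp6 (3p): ggccacttCCTGCTGgtcctcac
Atp6v0a4 (5p): gctgagatGACAGGCaggaaccc
Insrr (5p): tggccagaGACAGGCctgggagg

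The Aqp6 match lies in exon 5 of 5 at chromosome 15, 99604348 to 99604354, plus strand, at base 41 of a 3′ UTR of 1170 bases. The Atp6v0a4 match lies in exon 21 of 21 at chromosome 6, 38048558 to 38048564, minus strand, at base 426 of 507. The Insrr match lies in exon 22 of 22 at chromosome 3, 87815748 to 87815754, plus strand, at base 373 of 726. The genes with a match had log2 folds of both signs, with -0.07 for Aqp6, -0.59 for Insrr and 0.32 for Atp6v0a4 in the authors' deposited table, and the 7 without one had positive folds. A match describes the letters of the UTR and does not show binding.

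None of the 10 genes differed between the genotypes at an adjusted p under 0.05. In all, 25 genes of the table (0.124%) passed that threshold. Log2 folds are Pkd2-miR-214-KO over Pkd2-KO, the test is the authors' likelihood ratio test in edgeR with Benjamini-Hochberg adjustment, and each error is an approximate standard error (SE) computed from the fold and its likelihood ratio. Without adjustment, 1 member had a p under 0.05, Atp6v0d2, with a positive fold, whereas 3.1% of all genes were past that p with a positive fold and 1.71% with a negative one. Within the members' own range of expression, 8385 genes with a mean log2 CPM (read counts scaled to library size) of 4.36 to 8.45, the share with a positive fold past that p was 1.75%. Values per animal were not analysed here, so neither the spread within a group nor an overlap of the groups can be given.

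The direction of the folds rests on Mir214, the deleted locus, which the authors' deposited table gave a log2 fold of -7.62 ± 1.08. Xist, the RNA of the inactive X chromosome in female cells, rose in Pkd2-miR-214-KO kidneys by 10.21 ± 2.36 on the log2 scale (adjusted p = 0.0168, edgeR) in the authors' deposited table. The groups thus differed in a transcript that marks female animals. Sex is not given in the sources used here and cannot be told apart from genotype in any fold given here. Sequencing depth is unknown.

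**Figure D1:**
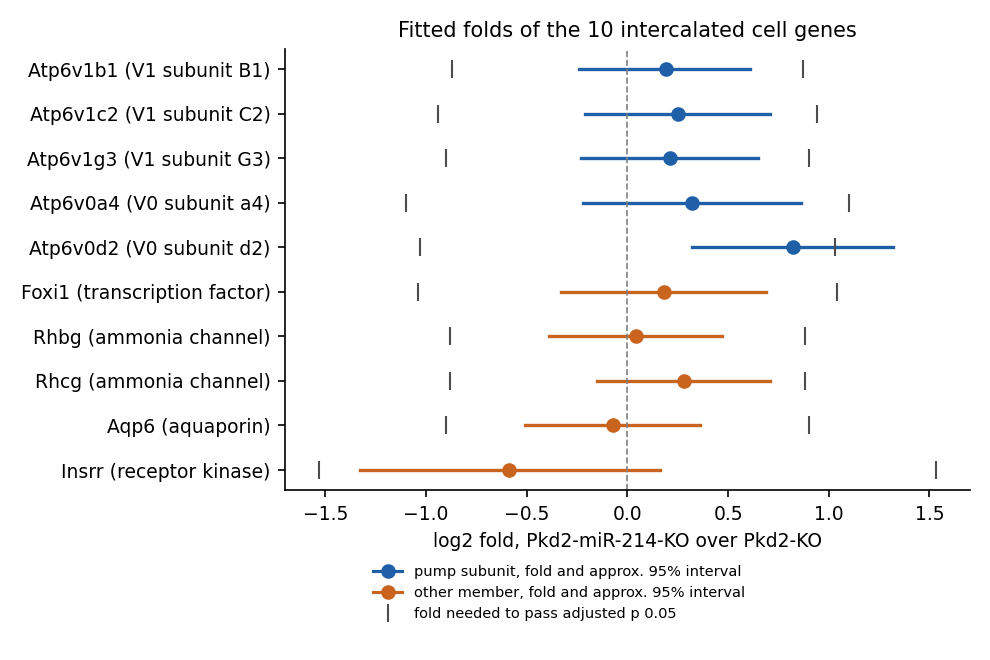
Log2 folds of the 10 members (horizontal axis, Pkd2-miR-214-KO over Pkd2-KO, n = 3 animals each) with approximate 95% intervals as lines. Vertical ticks mark the fold each gene would have needed, at its own SE, to pass an adjusted p of 0.05. Only the Atp6v0d2 interval (0.32 to 1.32) lies apart from 0, and its fold of 0.82 stays inside its ticks at 1.03.

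Atp6v0d2 encodes d2, a V0 subunit that couples the turning stalk to the membrane ring. The authors' deposited table gave it a log2 fold of 0.82 ± 0.26 (SE), which is 1.77 times the level in Pkd2-KO kidneys, with an approximate 95% interval of 1.25 to 2.50 times. Its unadjusted p of 0.00135 in edgeR ranked 116 of the 20138 genes, and its adjusted p was 0.232 in the authors' deposited table. A log2 fold of 1.03 would have been needed at this SE. The gene lies on chromosome 4 from 19876841 to 19922605 on the minus strand, and no other annotated gene overlaps it.

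The V1 subunit members had smaller folds, which lay close together. Atp6v1b1, which encodes B1, a subunit of the ATP-splitting head, had 0.19 ± 0.22 as its log2 fold (the authors' deposited table). Atp6v1g3, which encodes G3 of the peripheral stalk, had 0.21 ± 0.22, and Atp6v1c2, which encodes C2, the subunit that clamps V1 to V0, had 0.25 ± 0.23 in the authors' deposited table. Atp6v0a4, which encodes a4 of the proton path in V0, had 0.32 ± 0.27 in the authors' deposited table. All 4 had an adjusted p of 1, and their intervals spanned -15.1% to 81.2% relative to Pkd2-KO kidneys.

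The 5 pump subunits thus had 5 positive folds, with a median of 0.25. Over all genes 49.8% of folds were positive, with a median of 0.00, and within the members' range of expression 51.4%, with a median of 0.01. The members share their libraries and are not independent of each other, and the signs were not tested.

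The other 5 members had folds of both signs, with a median of 0.04. For Foxi1 the authors' deposited table gave a log2 fold of 0.18 ± 0.26. Rhcg had 0.28 ± 0.22 and Rhbg 0.04 ± 0.22 in the authors' deposited table. The interval of Rhbg, -0.39 to 0.47, spans -23.8% to 38.5% relative to Pkd2-KO kidneys.

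Aqp6, an aquaporin held in vesicles of type A cells together with the proton pump, had -0.07 ± 0.22 on the log2 scale in the authors' deposited table. Its interval, -0.51 to 0.36, was centred closest to 0 after that of Rhbg. Insrr, a receptor kinase of the insulin receptor family that is activated by alkaline fluid and found in the bicarbonate-secreting intercalated cells of the mouse, had the lowest fold, -0.59 ± 0.38 in the authors' deposited table. Its adjusted p was 1, its interval of -1.33 to 0.16 was the widest among the members, and a log2 fold of 1.53 in size would have been needed to pass. The relatives of Insrr had folds nearer 0, with -0.07 ± 0.20 for the insulin receptor gene Insr and -0.03 ± 0.22 for Igf1r in the authors' deposited table.

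The precision of the members was that of other genes of their expression. Their approximate SE had a median of 0.23 and a range of 0.22 to 0.38, beside a median of 0.22 over the 8385 genes in the same range of expression. At these SEs the members would have needed a fitted change of 1.83 to 2.88 times to pass. This bounds the fitted fold at the SE found, not the true change.

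Levels were compared per length, as the mean CPM over all 6 libraries divided by the kilobases of annotated exon. Rhcg stood highest with 99.3 CPM per kb, ahead of Atp6v0a4 with 70.3. Atp6v1g3 (40), Atp6v1b1 (36.9), Aqp6 (29.6), Atp6v0d2 (28.3) and Foxi1 (23.5) followed in CPM per kb. Rhbg had 17.8, Atp6v1c2 9.41 and Insrr 3.73 CPM per kb. The spread of these levels between animals is unknown, so which neighbours in the order differ cannot be said. Insrr, with the lowest level per length, also had the largest SE, 0.38. Atp6v1c2 had an SE of 0.23 at nearly the same mean log2 CPM, 4.36 against 4.41 for Insrr.

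Each of the 5 pump members has at least 1 paralogue that many cell types make for their lysosomes, and these paralogues were measured in the same kidneys. In every subunit the kidney-type isoform had the higher fold of the pair. For subunit d the log2 folds were 0.82 for Atp6v0d2 and -0.06 for Atp6v0d1 in the authors' deposited table, a difference of 0.88. For subunit C they were 0.25 for Atp6v1c2 and -0.09 for Atp6v1c1 in the authors' deposited table, a difference of 0.34. For subunit B they were 0.19 for Atp6v1b1 and 0.04 for Atp6v1b2, and for subunit G 0.21 for Atp6v1g3 and 0.05 for Atp6v1g1 in the authors' deposited table. The intervals overlapped in every pair, that of subunit d only narrowly, with 0.32 to 1.32 for Atp6v0d2 and -0.45 to 0.34 for Atp6v0d1. The differences themselves could not be tested, because the covariance of a pair of folds needs values per animal.

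Subunit a has 4 isoforms, of which a4 is the one among the members. Its gene Atp6v0a4 had 0.32 on the log2 scale in the authors' deposited table, above Tcirg1 (0.09 ± 0.24), which encodes the a3 of osteoclasts and lysosomes, Atp6v0a1 (0.03 ± 0.20) and Atp6v0a2 (-0.21 ± 0.19). Atp6v1g2, the G isoform of neurons, had 0.17 ± 0.32, with an average expression of only 2.60 log2 CPM in the authors' deposited table.

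**Figure D2:**
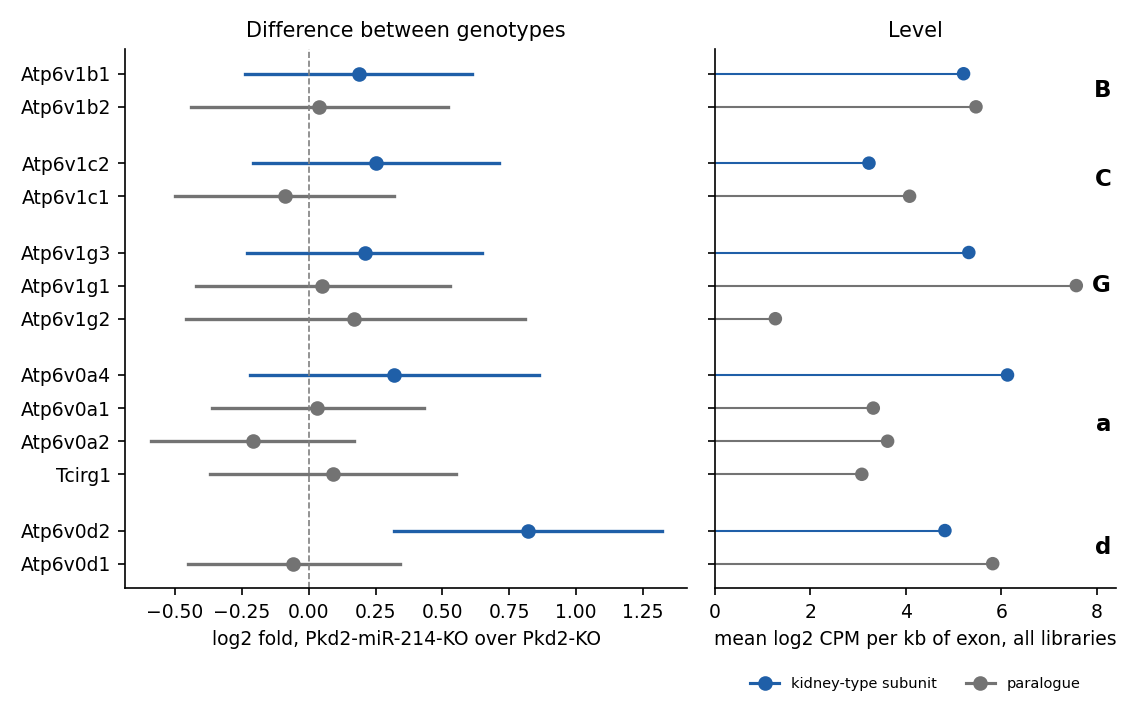
Kidney-type pump subunits (blue) and their paralogues (grey), grouped by subunit (B, C, G, a, d). The left panel gives log2 folds, Pkd2-miR-214-KO over Pkd2-KO, with approximate 95% intervals, and the right panel the mean log2 CPM per kb of exon over all libraries. In each group the kidney-type subunit has the highest fold, and only for subunit a does it also have the highest level at these exon lengths.

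The kidney-type isoform was the more abundant one per length only for subunit a. The length here joins all annotated exons of a gene, and the exons that the authors counted may differ. There Atp6v0a4 stood 7.04 times above Atp6v0a1, 5.70 times above Atp6v0a2 and 8.31 times above Tcirg1 in CPM per kb. Atp6v1b1 and Atp6v1b2 were close, with the second 1.20 times higher in level, so their order can depend on the exon length used. Atp6v1c1 was 1.80 times and Atp6v1g1 4.76 times above its kidney-type partner in level. Atp6v0d2 averaged 4.82 and Atp6v0d1 5.82 in log2 CPM per kb. Levels of single cell types cannot be read from these whole-kidney values.

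The rest of the pump had folds of both signs. Among the 20 pump and accessory subunit genes outside the members, 13 folds were positive, 6 negative and 1 exactly 0, with a range of -0.30 to 0.20 and a median of 0.04, and 0 passed at an adjusted or an unadjusted p under 0.05 in edgeR. The fold of exactly 0 was that of Atp6v1e2, which had no SE and a mean log2 CPM of only -4.11. The smallest p-values among the subunits without a tissue-specific relative in the members belonged to Atp6v0e2 (-0.30 ± 0.20), the accessory subunit gene Atp6ap2 (0.20 ± 0.25) and Atp6v1a (0.13 ± 0.28), the catalytic subunit, in the authors' deposited table.

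Because Foxi1 drives pump genes in intercalated cells, the members' promoters were searched for the forkhead letters GTAAACA and ATAAACA on both strands. RefSeq windows on GRCm38.p6, from 250 bases before to 50 bases after the gene start, were found for 7 of the 10 members. The letters occurred in 1 of the 7, Atp6v1b1, and in 8.0% of 32851 windows of 300 bases. The Atp6v1b1 window, chr6:83742767-83743066 on the plus strand, is shown with the letters in capitals, in the reverse orientation 98 bases before the gene start.
Atp6v1b1: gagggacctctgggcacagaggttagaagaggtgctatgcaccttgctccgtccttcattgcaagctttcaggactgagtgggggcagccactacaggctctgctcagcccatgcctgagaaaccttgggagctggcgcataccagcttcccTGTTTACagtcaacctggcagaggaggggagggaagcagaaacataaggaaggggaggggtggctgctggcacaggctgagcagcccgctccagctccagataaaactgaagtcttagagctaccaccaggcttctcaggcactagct

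Foxi1 and Atp6v1b1 had log2 folds of 0.18 ± 0.26 and 0.19 ± 0.22 in the authors' deposited table, and neither passed. Among members whose window lacks the letters, Atp6v1g3 had 0.21 ± 0.22 and Aqp6 -0.07 ± 0.22. A link between the folds of Foxi1 and Atp6v1b1 was not tested. The match describes letters in this window and shows neither binding by Foxi1 nor its lack elsewhere.

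Genes outside the members that define intercalated cells were also present in these kidneys. The type A chloride-bicarbonate exchanger Slc4a1 averaged 5.59 log2 CPM in the authors' deposited table. The type B pendrin gene Slc26a4 averaged 4.89 and the type B exchanger Slc4a9 6.27. Whole-kidney levels do not show which cells made the members' RNA, so they do not check the label of the members. Slc4a1 is also made by red cells, so its level alone does not show type A cells. In whole kidney a lower value can stand for fewer intercalated cells or for less RNA in each, and these cannot be told apart.

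A list of 23 other intercalated cell genes had 9 positive and 14 negative folds with a median of -0.04, where 49.8% of all genes were positive, and its difference from the pump members was not tested. In edgeR 0 of these genes passed at an adjusted p under 0.05. At an unadjusted p under 0.05 it had 0 genes with a positive fold (3.1% of all genes) and 1 with a negative one (1.71%), Atp12a. Atp12a, the non-gastric potassium-exchanging proton pump of the collecting duct, had -1.73 ± 0.58 on the log2 scale (adjusted p = 0.343, edgeR) in the authors' deposited table, the lowest of the list. Atp4a, which encodes the gastric type of that pump, had -0.56 ± 0.48 in the authors' deposited table. These potassium-exchanging pump genes had negative fitted folds, and the 5 vacuolar subunit members positive ones. Over all 25 vacuolar pump and accessory genes, 18 folds were positive, 6 negative and 1 exactly 0, with a median of 0.05. No difference between the families was tested.

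The genes next in p were Car15, a membrane carbonic anhydrase, with 0.49 ± 0.27, and Slc26a7, an anion exchanger, with -0.80 ± 0.46 and a low average of 1.28 log2 CPM in the authors' deposited table. Markers of type A and type B cells had folds of both signs. Slc4a1 had 0.32 ± 0.41, Slc4a9 0.32 ± 0.24 and Slc26a4 -0.54 ± 0.45 in the authors' deposited table. The last value lies beside the -0.59 of Insrr, but Slc4a9, also of type B cells, had the opposite sign. Blood markers, a list that includes Slc4a1 itself, had positive folds in 8 of 8 genes (range 0.32 to 4.89). Of these, 4 had an unadjusted p under 0.05 and 0 an adjusted one in edgeR. Over all genes 49.8% of folds were positive, and 3.1% of genes were past that unadjusted p with a positive fold. Among the blood markers the beta-globin gene Hbb-bt had 2.03 ± 0.87 in the authors' deposited table. The part of blood in the value of Slc4a1 was not tested.

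**Figure D3:**
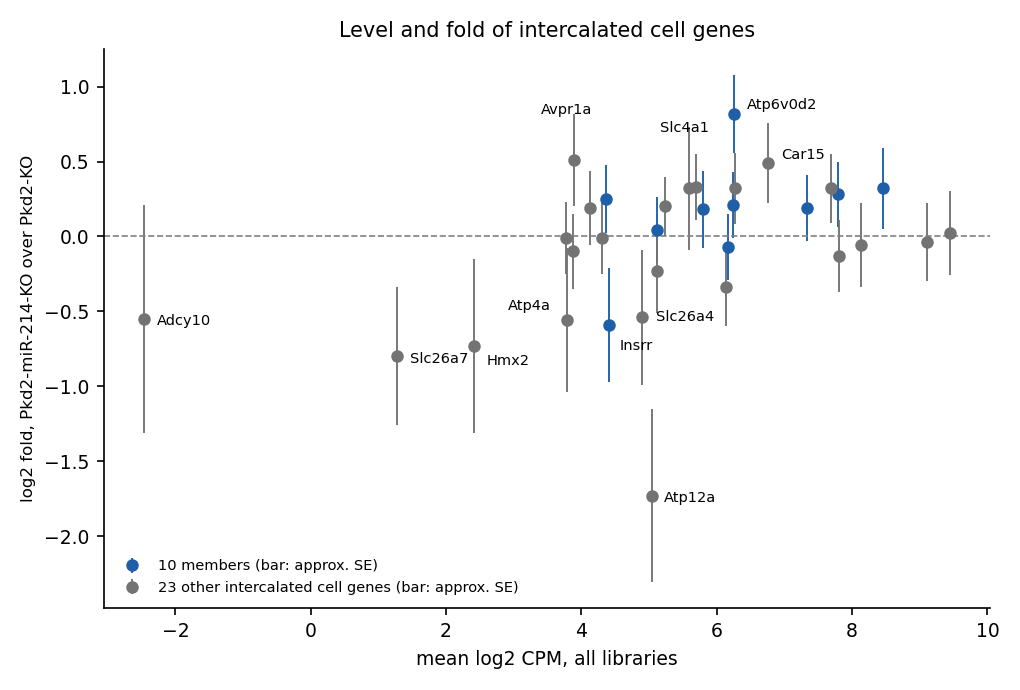
Mean log2 CPM over all libraries (horizontal axis) and log2 fold, Pkd2-miR-214-KO over Pkd2-KO (vertical axis), of the 10 members (blue) and 23 other intercalated cell genes (grey), with bars of 1 approximate SE. Atp6v0d2 has the highest fold (0.82) and Atp12a the lowest (-1.73).

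Principal cells are the other main cell type of the collecting duct. Their 11 marker genes had 6 positive and 5 negative folds with a median of 0.05 and a range of -0.48 to 0.40, and 0 passed at an adjusted or an unadjusted p under 0.05 in edgeR. Hsd11b2, the enzyme that shields the aldosterone receptor from glucocorticoids, had -0.48 ± 0.31, and the sodium channel genes Scnn1b and Scnn1g had 0.40 ± 0.27 and 0.30 ± 0.22 in the authors' deposited table. The marker genes Aqp2, Aqp3 and Avpr2 had 0.05 ± 0.36, -0.01 ± 0.31 and -0.15 ± 0.24.

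Markers of 2 upstream segments had folds of one sign. Those of the proximal tubule had negative folds in 10 of 10 genes (median -0.50) and those of the thick ascending limb in 8 of 8 (median -0.64, range -1.05 to -0.24). None of these 18 passed at an adjusted p under 0.05 in edgeR. At an unadjusted p under 0.05, 2 proximal and 4 thick limb genes did, all with negative folds. Of all genes, 1.71% were past that p with a negative fold, and 49.8% of all folds were positive. The lowest proximal fold, that of the transporter gene Slc7a13, was 0.25 times the level in Pkd2-KO kidneys (approximate 95% interval 0.09 to 0.72), and the highest log2 fold of that list was -0.09. Gatm (-0.99 ± 0.47) and Slc5a2 (-0.67 ± 0.41) came next in p in the authors' deposited table. In the thick limb the authors' deposited table gave the smallest p to Ppp1r1a (-0.99 ± 0.38), followed by Cldn19 (-0.58 ± 0.23) and Egf (-1.05 ± 0.45). The distal convoluted tubule had 2 positive, 2 negative and 1 fold of 0, with none past either threshold. The 0 belonged to Pvalb, whose likelihood ratio was also 0, so it has no SE and does not show an absence of change. The smallest p-values of that list belonged to Trpm6 (0.44 ± 0.27), Slc12a3 (-0.67 ± 0.45) and Tmem52b (-0.22 ± 0.36) in the authors' deposited table. Since CPM values are shares of a library, a smaller share of other cells raises the share of the rest, and the part of this in the pump folds was not tested.

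**Figure D4:**
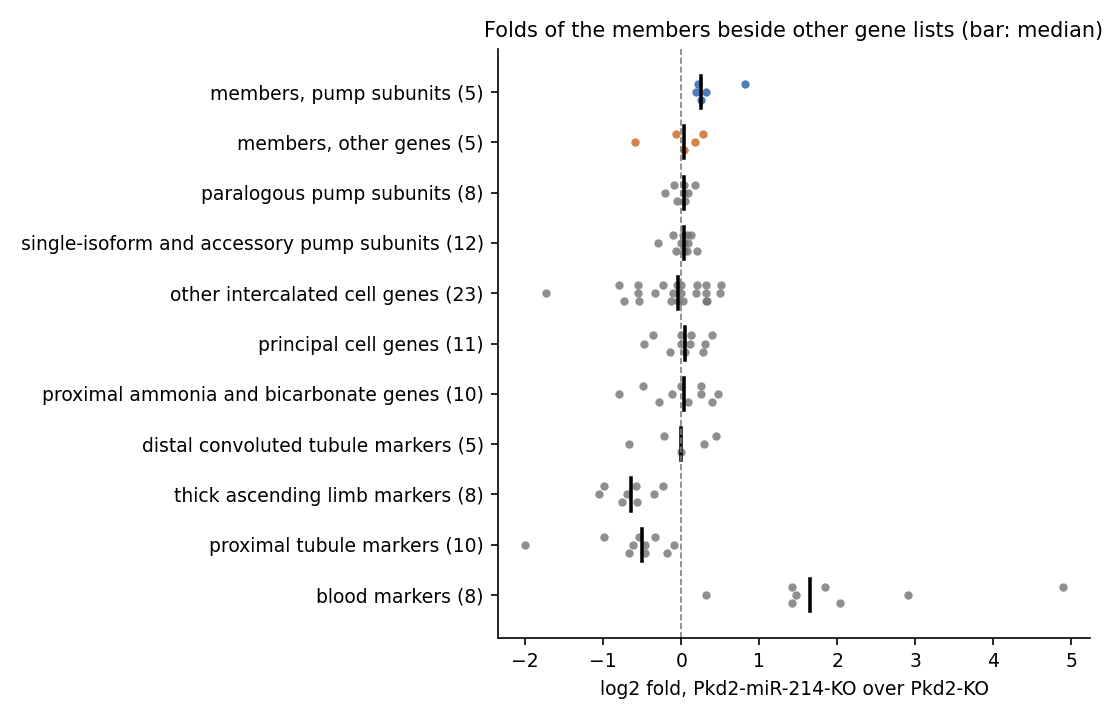
Log2 folds, Pkd2-miR-214-KO over Pkd2-KO, of the members and of other gene lists, 1 point per gene, with the number of genes in brackets and the median as a black bar. The pump members have a median of 0.25, the principal cell genes 0.05, the proximal tubule markers -0.50 and the blood markers 1.66.

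Ammonia reaches the collecting duct from the proximal tubule, which makes it from glutamine. The 10 genes of that path and of proximal bicarbonate handling had 6 positive and 4 negative folds with a median of 0.04. At an adjusted p under 0.05 in edgeR 0 passed, and at an unadjusted one 1, with a negative fold, beside 1.71% of all genes. The glutamate dehydrogenase gene Glud1 (0.25 ± 0.29) and Pck1 (0.40 ± 0.44), which rise in acidosis in rodents, had positive folds with an adjusted p of 1 in the authors' deposited table. Slc9a3, the proximal sodium-proton exchanger, had -0.80 ± 0.31 (adjusted p = 0.57, edgeR), the smallest p of the list, followed by the carbonic anhydrase gene Car4 (-0.49 ± 0.36) and Ogdh (-0.28 ± 0.29) in the authors' deposited table.

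The families of the ammonia channels and of Aqp6 held larger fitted folds at very low expression. The red cell Rh genes Rhag (4.89 ± 1.62) and Rhd (4.22 ± 1.67) lay at mean log2 CPM values of -3.38 and -3.54, against 5.11 for Rhbg and 7.79 for Rhcg in the authors' deposited table. Folds at such levels depend on the prior count of the fit. Among the aquaporins, Aqp9 (2.15 ± 0.94), Aqp8 (-1.42 ± 0.65) and Aqp5 (-0.75 ± 0.59), all at mean log2 CPM of 0.35 or less, had the smallest p-values. In edgeR 0 of 11 passed at an adjusted p under 0.05. Past the unadjusted one were 1 positive and 1 negative fold, beside 3.1% and 1.71% of all genes. Aqp2, the vasopressin-regulated channel beside Aqp6 on chromosome 15, had 0.05 ± 0.36 in the authors' deposited table.

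Subunit d2 is also made by macrophages and osteoclasts, so genes of these cells were set beside Atp6v0d2. Of 15 macrophage markers, present at mean log2 CPM values of 2.63 to 8.31, 10 had positive and 5 negative folds (median 0.13, range -0.41 to 5.99). The scavenger receptor genes Marco (5.99 ± 1.01, adjusted p = 1.27e-05) and Cd163 (1.76 ± 0.35, adjusted p = 0.00126) rose by the edgeR test in the authors' deposited table. Mrc1 (0.51 ± 0.24, adjusted p = 0.926) was the only other one with an unadjusted p under 0.05 in edgeR. Thus 3 of the 15 were past it with a positive fold and 0 with a negative one, beside 3.1% and 1.71% of all genes. The other 12 had folds of both signs, with 0.40 ± 0.35 for Cd68, 0.36 ± 0.26 for Cd14 and 0.21 ± 0.25 for C1qa, and -0.03 ± 0.22 for Csf1r and -0.37 ± 0.27 for Emr1 in the authors' deposited table. Of 8 genes of osteoclasts and fused macrophages, 3 had positive and 5 negative folds (median -0.15), with Gpnmb highest at 1.74 ± 0.48 (adjusted p = 0.134, edgeR) followed in p by Ctsk (0.36 ± 0.22) and Dcstamp (-0.59 ± 0.54), in the authors' deposited table. The part of macrophages in the fold of Atp6v0d2 was not tested.

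Some members share annotated exon bases with other genes, and, although the kit named in the labels keeps strand, the sources used here do not say whether counting used it. Atp6v0a4 (chromosome 6, 38048483 to 38124586, minus strand) shares 62 of its 4973 exon bases with Tmem213 on the opposite strand, at 0.21 ± 0.24 on the log2 scale, and 259 with D630045J12Rik on the same strand, at 0.02 ± 0.21, in the authors' deposited table. Atp6v1c2 (chromosome 12, 17284721 to 17329359, minus strand) shares 50 of 2174 with Pdia6 on the opposite strand, at -0.06 ± 0.22 in the authors' deposited table. Rhbg (chromosome 3, 88242874 to 88254709, minus strand) shares 1190 of 1937 with Gm38392 on the same strand, so its counting depends on how the authors' annotation treated that gene. Atp6v1b1 (chromosome 6, 83742990 to 83758855, plus strand), Atp6v1g3 (chromosome 1, 138273738 to 138289462, plus strand), Foxi1 (chromosome 11, 34204338 to 34208089, minus strand), Rhcg (chromosome 7, 79593363 to 79617657, minus strand), Aqp6 (chromosome 15, 99601400 to 99605477, plus strand) and Insrr (chromosome 3, 87796951 to 87816101, plus strand) share no exon base with another annotated gene.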

How the data were processed

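Kidney RNA of 3 Pkd2-miR-214-KO and 3 Pkd2-KO mice was compared, grouped by the genotype label. Per the submitters' processing notes, TopHat2 2.0.12, edgeR and build mm10 were used by the authors. Per the labels' protocols, libraries were made with a stranded total RNA kit, whereas the series' design text names polyA sequencing, and which of them holds is not settled here. The sources used here do not give the read counting, its use of strand, filters or normalization factors. Per the file headers, the deposited table holds for each gene a log2 fold, a mean log2 CPM, a likelihood ratio (a score on 1 degree of freedom), and p-values before and after adjustment, all made by the authors. The deposited p-values equalled the chi-square tail of the likelihood ratio (largest difference 6.25e-15), and the adjusted ones the Benjamini-Hochberg adjustment over 20138 genes (5.1e-14).

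The planned tests on counts gave way to the authors' test, since no values per library were used and depth is unknown. The approximate SE is the size of the log2 fold over the square root of its likelihood ratio, with 1.96 SE on either side for the 95% interval. The fold needed to pass is the SE times the square root of 16.1, the smallest likelihood ratio among genes past the threshold of 0.05. Exon lengths, positions and 3′ UTRs came from GENCODE M21 on the assembly of mm10. The direction was read from Mir214, since the header does not state it.

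The members and gene lists were chosen with earlier results of these data known, and the macrophage and osteoclast lists after the members' folds were seen. Named were the 10 members, their paralogues, up to 3 genes of smallest p from each list and the cell type markers; 1 gene that this rule takes from the blood list is not reported here. Other genes named, such as Atp4a, Glud1, Pck1, Aqp2, Cd68, Cd14, C1qa, Csf1r, Emr1, Xist and the genes sharing exon bases, were chosen after their values were seen. Likeness of pattern over samples was not analysed here. The p-values measure spread between animals only as the authors' fit estimated it. Statistics used scipy 1.17.1 and numpy 2.4.6 under Python 3.11.15, tables pandas 2.3.3, and plots matplotlib 3.10.9.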

Additional observations from a re-analysis of the deposited data

How the results depend on the processing

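The count of members past an adjusted p of 0.05 was 0 with adjustment over the 14520 genes with a mean log2 CPM of at least 0 and over the 12661 with at least 2, which called 19 and 17 genes, against 25 in the table. Benjamini-Yekutieli adjustment, and an F distribution with 1 and 4 degrees of freedom in place of chi-square, called 14 and 0 genes. Both can only raise a p-value, so their count of 0 members was fixed by construction and says nothing about stability. The adjusted p of Atp6v0d2 was 0.232 in the authors' deposited table and 0.248 to 1 under these alternatives, and its unadjusted p was 0.0327 with the F distribution. The members' median log2 fold of 0.20 ranged from 0.19 to 0.21 when each member was left out, and 3 ways of centring the folds moved it by at most 0.006. Against the mean of all paralogues, an alternative chosen after seeing the data, the difference was 0.09 for subunit G and 0.35 for subunit a, against 0.15 and 0.29 with the first paralogue. Leaving out each animal was not run, since it needs values per library, which were not used here. No paired analysis was possible because the table holds no values per animal.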
